A study of Mus musculus with 24 samples.

Results

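Chondrocytes in co-culture with dermal fibroblasts were compared, gene by gene, with chondrocytes grown alone, at the 36 h time point and without IL-1β. All cells were wild-type mouse primary chondrocytes, freed from cartilage with collagenase II and cultured in DMEM/F12 with ITS (insulin, transferrin and selenium) and fetal bovine serum. Co-culture was in transwell chambers with primary dermal fibroblasts, which had been isolated from skin and kept in alpha-MEM with serum, and the RNA came from the chondrocytes of the lower chamber. A transwell chamber has a porous membrane that keeps cells apart and lets dissolved factors pass. The comparison held 6 of the 24 libraries of the series, 3 of the co-culture and 3 of the normal culture, chosen by their labels. The 36 h were counted from the time at which other wells received IL-1β at 10 ng/ml, which was 24 h after the cells had attached, and the 6 libraries here received none. Which medium the chambers held is not given in the sources used here, and an effect of the fibroblasts and an effect of another medium cannot be told apart. Levels are given as FPKM (fragments per kilobase of gene, scaled to the library's total of mapped fragments) and differences as co-culture minus normal culture on the scale of log2(FPKM + 1), with the standard error. Tests were those of limma over 12178 genes with Benjamini-Hochberg adjustment, and a gene was called at an adjusted p under 0.05. Nothing in the labels says that the replicates came from different cultures or mice, and p-values therefore reflect the spread among libraries alone, which may be technical. That spread was estimated over all 24 libraries and not over the 6 alone. The residual SD was 0.091 in normal culture and 0.0853 in co-culture here. With IL-1β at 72 h it was 0.167 in normal culture and 0.119 in co-culture.

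The cells carried the chondrocyte markers Col2a1 at 302, Sox9 at 30.3 and Acan at 9.85 FPKM in normal culture, while Matn3 was below 1 FPKM in all 6 libraries. Fibroblast-type collagen was also abundant, with Col1a1 at 2489 FPKM. The 3 libraries of a group correlated with each other at 0.9972 to 0.9979 across genes on the log2 scale and with those of the other group at 0.9926 to 0.9938. No library stood apart. The number of reads is unknown, so no counting error can be attached to a single value.

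Chondrocytes are the only cell type of healthy cartilage and live there with little oxygen, which they answer through hypoxia-inducible factor and a largely glycolytic metabolism. Fibroblasts secrete growth factors, cytokines and WNT and IGF modulators. Growth factors that reach a receptor tyrosine kinase activate ERK. Signalling downstream of ERK acts in the nucleus in part at promoters bound by serum response factor and CREB. It switches on immediate early genes such as Fos and Egr1 within minutes, together with the phosphatases and inhibitors that end the signal.

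Of the tested genes, 1885 passed (15.5%), of which 765 were higher in co-culture (6.28%) and 1120 lower (9.2%). The last 2 shares are the background for each count of list members that rose or fell. On the log2(FPKM + 1) scale, which understates the change of low genes, 26 of the higher genes (0.213%) and 8 of the lower ones (0.0657%) differed by at least 2-fold. The libraries of the groups did not overlap for 1922 higher genes (15.8% of those tested) and 3206 lower ones (26.3%), and these shares are the background for each statement that groups did not overlap. The split of calls depended on scaling. Higher genes made up 40.6% of the calls on the deposited FPKM and 53.1% (889 higher, 786 lower) after median-of-ratios scaling, while the median difference over all tested genes moved only from -0.03 to -0.0075. Leaving out any 1 of the 6 libraries gave fewer calls in both directions, with 549 to 616 higher genes. The number of lower genes was 697, 806 and 758 without normal culture replicates 1, 2 and 3. It was 710, 708 and 732 without co-culture replicates 1, 2 and 3.

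**Figure D1:**
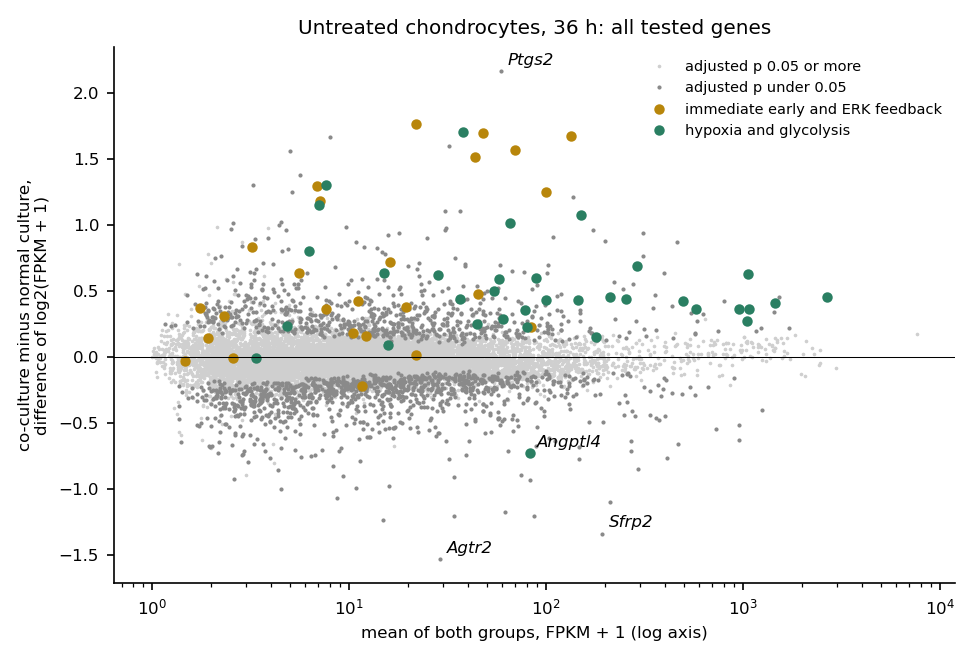
Difference between co-culture and normal culture (difference of log2(FPKM + 1), vertical axis) against the mean level of both groups (FPKM + 1, log axis) for the 12178 tested genes, 3 libraries per group. Most immediate early and hypoxia genes lie above 0, with Ptgs2 at the top (2.17) and Agtr2 at the bottom (-1.53), and Angptl4 is the hypoxia gene far below 0 (-0.72).

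Immediate early and ERK feedback genes were among the largest rises. Of 25 tested members, 17 rose (68%, against 6.28% of all tested genes) and 1 fell (4%, against 9.2%). The median difference was 0.43 against -0.03 over all tested genes. Fos, a subunit of the AP-1 transcription factor, stood at 8.33, 9.48 and 9.14 FPKM in the normal cultures and at 32.9, 33.0 and 33.0 in the co-cultures, a 3.67-fold higher mean (difference 1.77 ± 0.055, adjusted p = 5.39e-16). Egr1, a zinc finger transcription factor, was at 63.4, 65.3 and 59.3 FPKM in normal culture and at 207, 194 and 206 in co-culture (1.68 ± 0.053, adjusted p = 5.39e-16). For the orphan nuclear receptor gene Nr4a1 the values were 19.9, 23.2 and 21.5 and 70.8, 71.4 and 74.7 FPKM (1.70 ± 0.059, adjusted p = 3.21e-15). In each of these genes the lowest co-culture library lay more than 2-fold above the highest normal one. Ier2, a nuclear immediate early protein, rose by 1.57 and Ier3 by 1.25. The related factors Egr2, Egr3, Junb and Jun rose by 1.19, 0.84, 0.91 and 0.48, and Fosl2, which is already abundant in normal culture (75.9 FPKM), by 0.23.

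Of the 9 tested phosphatase, Sprouty and Spred genes of the same list, which feed back on the signal, 5 rose, against 6.28% of all tested genes. Dusp1, a phosphatase that removes the activating phosphates from MAP kinases, was at 22.2, 20.8 and 21.9 FPKM in normal culture and at 65.0, 63.0 and 63.5 in co-culture (1.52 ± 0.077, adjusted p = 3.82e-12). Dusp5, which acts on ERK in the nucleus, was at 3.02, 3.39 and 2.53 and 8.12, 8.90 and 9.21 FPKM (1.30 ± 0.10, adjusted p = 7.63e-09), and neither phosphatase gene had overlapping libraries. The cytoplasmic ERK phosphatase gene Dusp6 rose by 0.73 and the receptor tyrosine kinase inhibitor genes Spry2 and Spry1 by 0.38 and 0.36. The other 4 were not called, namely Dusp4 at 0.32, Spred2 at 0.17, Spred1 at 0.021 and Spry4 at -0.0071. Errfi1, an inhibitor of the EGF receptor outside this list, rose by 0.55. Etv5, a transcription factor gene of the ETS family, was the member of the immediate early and ERK feedback list that fell, by 0.21 (adjusted p = 0.0319), a call lost whichever of the 6 libraries was left out (adjusted p up to 0.111). Btg2, an antiproliferative early response gene also outside the list, went from 14.6, 15.4 and 14.7 to 47.3, 47.3 and 47.8 FPKM (1.61 ± 0.046, adjusted p = 2.47e-16).

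**Figure D2:**
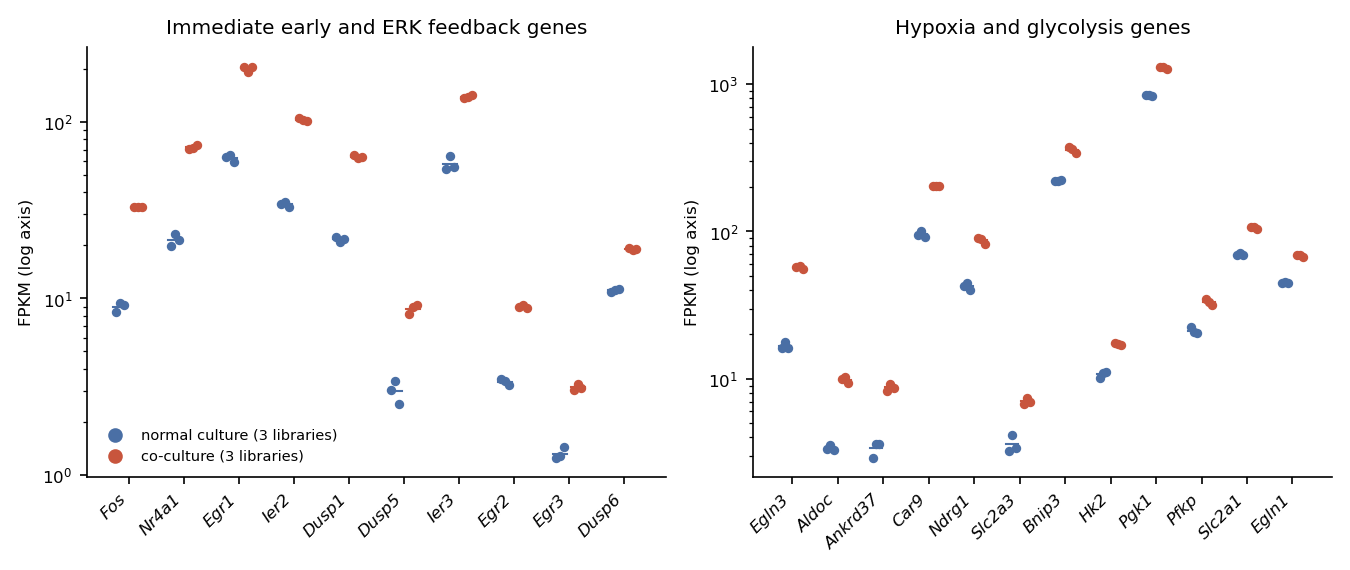
FPKM (log axis) in each of the 6 libraries, with a line at the group mean, for the immediate early and ERK feedback genes (left) and the hypoxia and glycolysis genes (right) with the largest rises. For every gene drawn, all 3 co-culture libraries lie above all 3 normal culture libraries.

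The promoters of these phosphatase genes show the elements through which immediate early genes are classically switched on, the cAMP response element (CRE) and the CArG box bound by serum response factor. They are printed because both genes rose together here, taken from RefSeq on GRCm38.p6 as the 180 bases before the gene's start, in lower case with the motif in capitals. Dusp1 (chr17:26508473-26508652, minus strand) holds 1 CRE, TGACGTCA, beginning 143 bases before the start, and Dusp5 (chr19:53528965-53529144, plus strand) holds a pair of adjoining CArG boxes beginning 82 and 72 bases before it.
Dusp1: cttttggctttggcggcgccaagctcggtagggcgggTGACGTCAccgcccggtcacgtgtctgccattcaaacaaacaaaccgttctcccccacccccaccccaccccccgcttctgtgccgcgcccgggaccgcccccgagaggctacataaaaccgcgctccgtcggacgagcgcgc
Dusp5: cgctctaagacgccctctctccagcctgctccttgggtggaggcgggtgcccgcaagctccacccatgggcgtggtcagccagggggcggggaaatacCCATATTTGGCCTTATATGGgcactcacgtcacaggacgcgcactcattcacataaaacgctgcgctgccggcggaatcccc
Both strands were searched, and no motif contains another. Over windows of the same length, 2.95% of 9757 tested genes with a sequence held a CRE and 1.04% a CArG box. Of the 18 members of the list with a sequence, 1 held a CRE (5.56%) and 2 a CArG box (11.1%). A match of letters is a description and not a measured site.

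Some ligands of growth factor and cytokine receptors rose as well. Hbegf, a membrane-anchored ligand of the EGF receptor, was at 5.68, 5.45 and 5.35 FPKM in normal culture and at 11.2, 12.6 and 11.9 in co-culture (0.99 ± 0.079, adjusted p = 8.36e-09). Ereg, another ligand of that receptor family, was at 7.53, 7.43 and 7.59 and 14.8, 14.1 and 13.8 FPKM (0.84 ± 0.12, adjusted p = 3.44e-05). Of the 7 tested receptor genes of the FGF, EGF, PDGF and HGF list 4 fell, against 9.2% of all tested genes. Egfr fell by 0.46 to 20.8 FPKM (adjusted p = 0.00133) and Fgfr2 by 0.47 to 20.7 (adjusted p = 9.88e-07), and Fgfr1 and Pdgfra fell by 0.26 and 0.35. Met at 0.14, Fgfr3 at 0.042 and Pdgfrb at -0.078 were not called. Over all 22 tested genes of the list 5 rose (22.7%, against 6.28% of all tested genes) and 4 fell (18.2%, against 9.2%).

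In the IL-6 family 1 receptor gene fell beside its ligand. Lif, a cytokine that signals through gp130 and STAT3, was at 2.75, 3.10 and 2.60 FPKM in normal culture and 11.5, 10.5 and 11.4 in co-culture, a 3.96-fold higher mean (1.67 ± 0.09, adjusted p = 1.38e-11). Its receptor gene Lifr fell by 0.44 (adjusted p = 3.14e-05), whereas the receptor genes Il6ra, Il6st and Osmr, at -0.061, -0.074 and -0.071, were not called. Il6, the founding cytokine of the family, stood at 37.7, 43.6 and 41.0 and 59.9, 56.2 and 58.2 FPKM (0.50 ± 0.10, adjusted p = 0.00101). The 16 tested members of the STAT3 response split evenly, with 4 higher (25%, against 6.28% of all tested genes) and 4 lower (25%, against 9.2%). Those that rose were Junb, Fosl1 (0.54), the kinase gene Pim1 (0.53) and Myc (0.44), of which Junb and Fosl1 encode AP-1 subunits. The 4 that fell were Lifr, Stat3 itself (-0.21), the feedback inhibitor gene Socs3 (-0.19, adjusted p = 0.0240) and the repressor gene Bcl6 (-0.24, adjusted p = 0.0356). Leaving out each of the 6 libraries in turn gave 4 higher and 2 to 3 lower members. The call of Socs3 was lost in every case but normal culture replicate 3 (adjusted p up to 0.0871) and that of Bcl6 in every case but normal culture replicate 1 (up to 0.144).

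Most hypoxia and glycolysis genes rose. Of 34 tested members, 29 rose (85.3%, against 6.28% of all tested genes) and 1 fell, with a median difference of 0.44. Egln3, a prolyl hydroxylase that marks hypoxia-inducible factor for destruction and is itself induced by it, was at 16.2, 17.8 and 16.3 FPKM in normal culture and at 57.0, 57.9 and 56.0 in co-culture, a 3.40-fold higher mean (1.71 ± 0.10, adjusted p = 2.97e-11). Car9, a membrane carbonic anhydrase, was at 94.8, 100.1 and 91.3 and 203, 203 and 203 FPKM (1.08 ± 0.12, adjusted p = 1.67e-06), and neither gene's groups overlapped. Ankrd37 rose by 1.16, the stress response gene Ndrg1 by 1.02 and the mitophagy receptor gene Bnip3 by 0.69, from 221 to 358 FPKM. Hif1a, which encodes the regulated subunit of the factor and was named after its values were seen, was at 288, 309 and 304 FPKM in normal culture and 307, 300.3 and 292 in co-culture, with overlapping libraries (adjusted p = 0.981).

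Genes for most steps from glucose uptake to lactate export were among those that rose. The glucose transporter genes Slc2a1 and Slc2a3 rose by 0.60 and 0.81, and hexokinase 2 (Hk2), the first enzyme of the pathway, by 0.64. Among the enzymes that follow, Gpi1 rose by 0.46, Pfkp by 0.62, Aldoc by 1.31, Aldoa by 0.37, Tpi1 by 0.37 and Pgam1 by 0.43. Pgk1, which makes the first ATP of glycolysis, was at 838, 839.8 and 831 FPKM in normal culture and at 1317, 1302 and 1264 in co-culture (0.63 ± 0.049, adjusted p = 5.83e-09). Gapdh, often used as an invariant reference gene, was at 2334, 2229 and 2191 and 3103, 3121 and 3033 FPKM (0.46 ± 0.064, adjusted p = 2.76e-05). The enolase gene Eno1 rose by 0.41, Ldha, which turns pyruvate into lactate, by 0.36 and the lactate exporter gene Slc16a3 by 0.43. Pdk1, a kinase that keeps pyruvate out of the mitochondrion, rose by 0.50. Of 29 tested nuclear genes of the respiratory chain none rose (none at an unadjusted p under 0.05 in limma either) and 4 fell, a share of 13.8% that is near the 9.2% over all tested genes. The largest of those falls was Ndufa4 (-0.35, adjusted p = 0.000359), and leaving out each library in turn gave 1 to 3 lower genes, against 2 after median-of-ratios scaling.

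The promoters of Car9 and Pgk1 are printed because these highly expressed members hold the core of the hypoxia response element, ACGTG, within the window. The source, window and case are as for the phosphatase genes. Car9 (chr4:43506846-43507025, plus strand) holds it once, on the minus strand beginning 18 bases before the start, and Pgk1 (chrX:106186920-106187099, plus strand) holds it in 2 places, on the plus strand beginning 150 bases before the start and on the minus strand beginning 131 bases before it.
Car9: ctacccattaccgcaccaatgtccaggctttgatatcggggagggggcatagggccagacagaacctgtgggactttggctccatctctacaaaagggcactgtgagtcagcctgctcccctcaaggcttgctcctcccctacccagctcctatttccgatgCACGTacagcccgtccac
Pgk1: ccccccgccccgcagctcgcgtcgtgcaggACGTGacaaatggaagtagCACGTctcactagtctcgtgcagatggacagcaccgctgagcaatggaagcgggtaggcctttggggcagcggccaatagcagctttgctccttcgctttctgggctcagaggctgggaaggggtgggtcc
Of the 31 list members with a sequence, 15 held the core on either strand (48.4%), against 1940 of 9757 tested genes (19.9%). The core was not particular to this list, as 6 of 18 immediate early and ERK feedback genes held it too (33.3%). Among them are Dusp1 and Dusp5, whose sequences above hold it in lower case.

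Angptl4 was the hypoxia list member that fell. This secreted inhibitor of lipoprotein lipase, which fatty acids induce through PPAR as well, was at 108, 98.9 and 101 FPKM in normal culture and at 62.4, 62.6 and 60.1 in co-culture (-0.72 ± 0.10, adjusted p = 3.75e-05). Of 12 tested adipogenic and lipid storage genes, 5 fell (41.7%, against 9.2% of all tested genes) and 1 rose (8.33%, against 6.28%). Those that fell included Cpt1a, which admits fatty acids to the mitochondrion (-0.34), the adipogenic factor gene Cebpa (-0.46), the fatty acid transporter gene Cd36 (-0.48) and Adipoq (-0.74). Fabp4, a fatty acid carrier, was the one that rose, by 0.35 (adjusted p = 0.00263). The hypoxia targets Vegfa and Ero1l, outside the list, rose: Vegfa, the main angiogenic factor, was at 74.5, 82.7 and 74.9 and 124, 127 and 127 FPKM (0.70 ± 0.074, adjusted p = 6.01e-07), and Ero1l, an oxidase for protein folding in the endoplasmic reticulum, rose by 1.21.

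Inflammatory genes moved in both directions. Ptgs2 (chromosome 1, 150100031 to 150108227, plus strand of GRCm38), which encodes the prostaglandin-forming cyclooxygenase 2, had the largest rise of any named gene, from 19.0, 21.4 and 21.2 FPKM in the normal cultures to 97.3, 95.6 and 94.2 in the co-cultures, a 4.66-fold higher mean (2.17 ± 0.16, adjusted p = 2.68e-09). Nos2, the inducible nitric oxide synthase, was at 1.28, 1.37 and 1.37 and 3.15, 3.55 and 3.36 FPKM (0.89 ± 0.11, adjusted p = 8.58e-06). Both stayed far below their level in normal culture under IL-1β at the same time, 554 ± 53.1 FPKM for Ptgs2 and 95.3 ± 6.61 for Nos2 (SD, n = 3).

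Of 21 tested cytokine and chemokine genes 7 fell (33.3%, against 9.2% of all tested genes), 4 rose (19%, against 6.28%) and 10 did not pass. Cxcl12, a homeostatic chemokine made by stromal cells, was at 512, 535 and 514 FPKM in normal culture and at 303, 303 and 311 in co-culture (-0.77 ± 0.044, adjusted p = 3.24e-11), with no overlap. Cxcl5, a neutrophil attractant, fell by 0.54 from 861 FPKM, Ccl11, the eosinophil attractant eotaxin, by 0.67 from 1.39 FPKM and the alarmin gene Il33 by 0.59 from 2.16 FPKM. The 4 that rose were Lif, Il6, the neutrophil attractant gene Cxcl2 (0.48, adjusted p = 0.0180) and Csf1 (0.13, adjusted p = 0.0272), which encodes a growth factor for macrophages. Leaving out each library in turn gave 6 to 7 lower and 2 to 3 higher. The call of Csf1 was lost in every case but normal culture replicate 1 (adjusted p up to 0.0980), and that of Cxcl2 without normal culture replicate 1, co-culture replicate 2 or co-culture replicate 3 (up to 0.0860). Saa3, an acute phase serum amyloid, was at 115, 111 and 96.8 FPKM in normal culture and 48.9, 58.2 and 61.9 in co-culture (-0.93 ± 0.18, adjusted p = 0.00118). The metalloreductase gene Steap4 fell by 0.91. Among 13 tested acute phase, prostaglandin and nitric oxide genes 5 fell (38.5%, against 9.2% of all tested genes) and 6 did not pass. The 2 that rose (15.4%, against 6.28%) were Ptgs2 and Nos2. Of the 5 that fell, C3 and Cfb belong to the complement list as well.

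Of 12 tested complement genes 7 fell (58.3%, against 9.2% of all tested genes) and none rose, with a median difference of -0.32. C3, the central component, was at 31.7, 32.3 and 29.3 FPKM in normal culture and at 20.8, 20.7 and 22.3 in co-culture (-0.53 ± 0.073, adjusted p = 2.11e-05). C4b fell by 0.56, the alternative pathway protease gene Cfb by 0.55 and the regulator gene Cd55 by 0.50, so that activating and inhibitory members fell alike. None of the 12 rose at an unadjusted p under 0.05 either (limma). NF-κB targets and feedback genes had no common direction, with 3 of 19 higher (15.8%, against 6.28% of all tested genes) and 4 lower (21.1%, against 9.2%). Nfkbiz, an atypical inhibitor of NF-κB, rose by 0.43 and the adhesion molecule gene Vcam1 fell by 0.32, and without single libraries the counts were 2 to 4 in either direction. Of 26 tested interferon-stimulated genes 1 was higher (3.85%) and 2 were lower (7.69%), near the shares over all tested genes (6.28% and 9.2%).

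**Figure D3:**
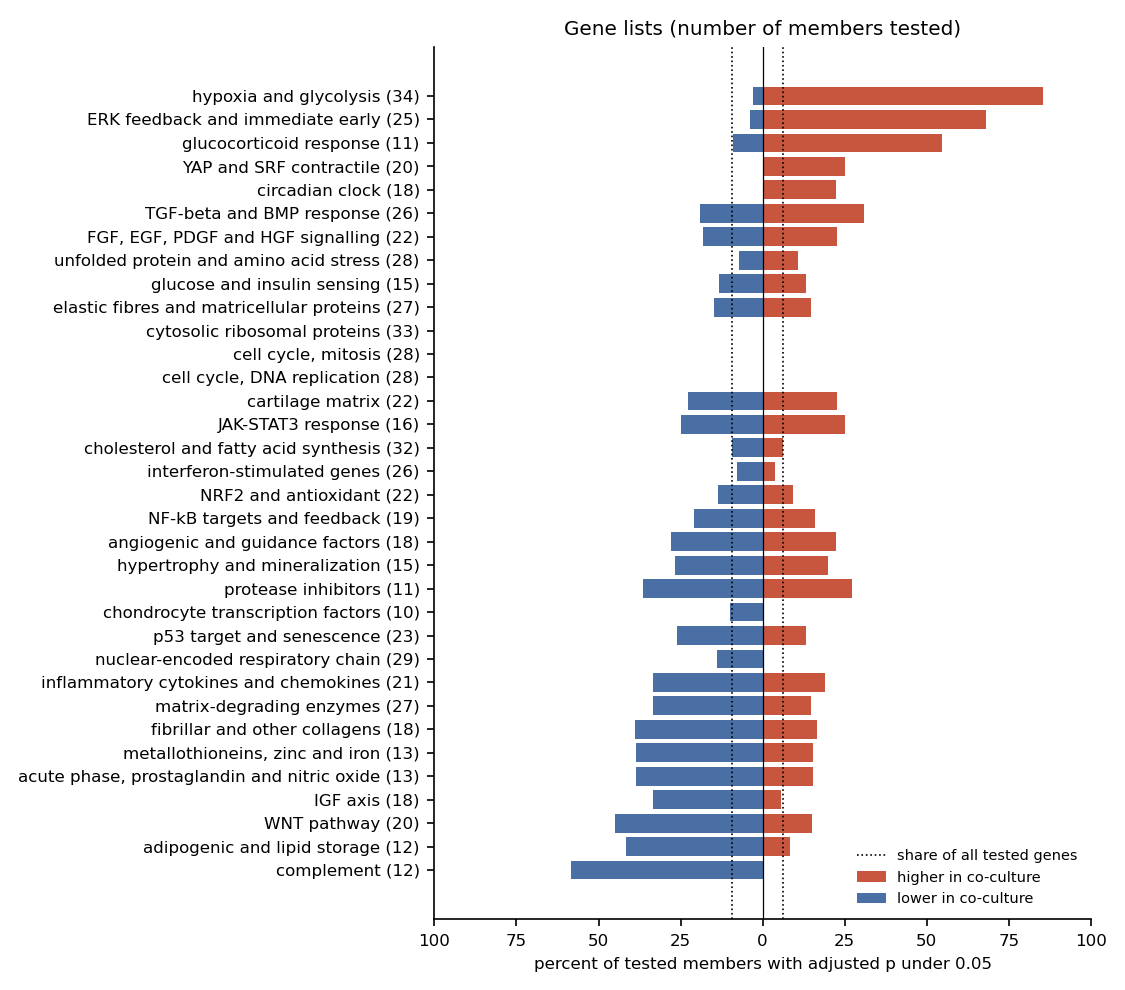
Percent of the tested members of each of 34 gene lists that were higher (right) or lower (left) in co-culture at an adjusted p under 0.05, with the number of members tested in brackets and dotted lines at the share over all tested genes (6.28% higher, 9.2% lower). Hypoxia and glycolysis and the immediate early list reach furthest to the right, and complement, WNT and adipogenic genes furthest to the left.

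Several secreted modulators of WNT and IGF signalling fell, while others rose or did not pass. Of 20 tested WNT pathway genes, 9 fell (45%, against 9.2% of all tested genes) and 3 rose (15%, against 6.28%), with a median of -0.24. Sfrp2 (chromosome 3, 83766321 to 83774316, plus strand of GRCm38), a secreted protein that binds WNT ligands, was at 287, 271 and 269 FPKM in normal culture and at 109.95, 108 and 108 in co-culture (-1.33 ± 0.10, adjusted p = 1.33e-09). Its relatives Sfrp1 and Frzb fell by 0.67 and 0.42, and Lgr5, a receptor for WNT-enhancing R-spondins, by 0.42. Dkk2, a WNT co-receptor antagonist, rose instead, from 2.09, 2.00 and 1.69 to 4.82, 4.64 and 5.13 FPKM (1.00 ± 0.069, adjusted p = 7.08e-10). The WNT target Ccn4 rose by 0.37. Of the 9 that fell, 7 (Sfrp1, Sfrp2, Sfrp4, Frzb, Wif1, Dkk3 and Notum) encode secreted WNT inhibitors, and Dkk2, on the other side, is one as well. Leaving out each library in turn gave 6 to 9 lower members. Wif1 lost its call without any library but normal culture replicate 2 (adjusted p up to 0.252), Notum without normal culture replicates 1 and 3 and co-culture replicates 1 and 2, each left out singly (up to 0.104), and Sfrp4 without normal culture replicates 1 and 3 and co-culture replicate 1 (up to 0.133).

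In the IGF axis 6 of 18 tested genes fell (33.3%, against 9.2% of all tested genes) and 1 rose (5.56%, against 6.28%). Igf1, the anabolic ligand for cartilage, was at 40.4, 39.2 and 39.5 FPKM in normal culture and at 22.6, 22.9 and 23.1 in co-culture (-0.77 ± 0.073, adjusted p = 1.24e-07). Igfbp3, a binding protein that holds IGF in the extracellular space, was at 92.9, 76.4 and 85.7 and 36.6, 37.3 and 37.1 FPKM (-1.17 ± 0.074, adjusted p = 1.57e-10). Igfbp4 and Igfbp5 fell by 0.46 and 0.49, while the carrier genes Igfbp2, Igfbp6 and Igfbp7, at 0.29, 0.22 and 0.10, were not called. Stc2, a secreted glycoprotein that inhibits the protease cleaving IGF-binding proteins, was the member that rose, by 0.94 (adjusted p = 4.35e-09).

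**Figure D4:**
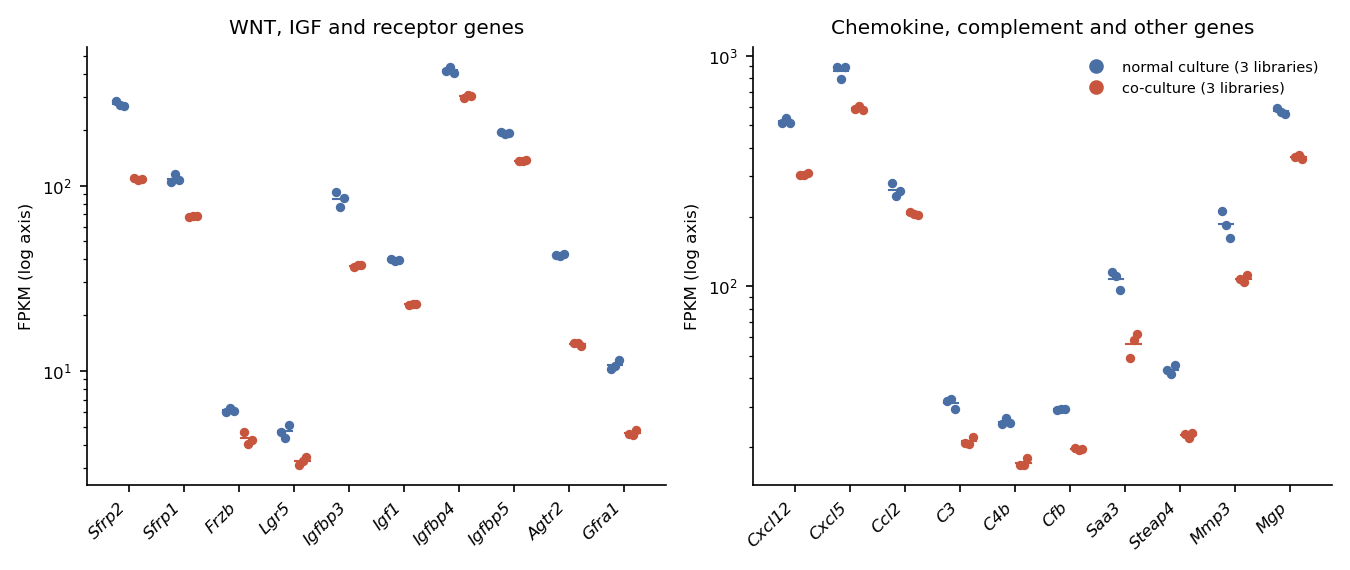
FPKM (log axis) in each of the 6 libraries, with a line at the group mean, for WNT, IGF and receptor genes (left) and chemokine, complement, protease and mineralization genes (right) that fell. For every gene drawn, all 3 co-culture libraries lie below all 3 normal culture libraries.

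Genes outside these pathways made up much of the rest of the largest falls. Agtr2, the type 2 angiotensin receptor (chromosome X, 21484544 to 21489164, plus strand of GRCm38, GENCODE vM21), led them with 42.0, 41.6 and 42.8 FPKM in normal culture and 14.2, 14.1 and 13.6 in co-culture (-1.53 ± 0.12, adjusted p = 7.63e-09). Sned1, an extracellular matrix glycoprotein, was at 114, 122 and 123 and 50.5, 50.3 and 53.4 FPKM (-1.20 ± 0.10, adjusted p = 1.35e-08). Gas6, the ligand of the TAM receptor kinases, was at 300.5, 283 and 278 and 135, 132 and 133 FPKM (-1.10 ± 0.06, adjusted p = 1.52e-11). None of the 3 had overlapping groups. The EGF-repeat matrix gene Egfl6 fell by 1.23, the GDNF co-receptor gene Gfra1 by 1.06, the ferritin receptor gene Scara5 by 0.98, Ggt5 by 0.90 and the water channel gene Aqp1 by 0.89. Msmp fell by 1.20 (adjusted p = 0.000140), a call that was lost on log2(FPKM + 0.1), where its adjusted p was 0.264. On the higher side, the simple epithelial keratin genes Krt19 and Krt7 rose by 1.38 and 1.26, to only 7.13 and 6.20 FPKM.

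TGF-beta, YAP and SRF targets rose in part. Ccn2 (connective tissue growth factor) was at 137, 141 and 139 FPKM in normal culture and at 259, 256 and 255 in co-culture (0.88 ± 0.056, adjusted p = 2.06e-10), and its relative Ccn1 at 326, 330.2 and 322 and 596, 597 and 606 (0.88 ± 0.058, adjusted p = 3.68e-10). Both genes respond to TGF-beta as well as to YAP, and neither had overlapping groups. Of 26 tested TGF-beta and BMP response genes 8 rose (30.8%, against 6.28% of all tested genes) and 5 fell (19.2%, against 9.2%). Among the former were the activin subunit gene Inhba (0.67), its antagonist Fstl3 (0.66) and the SMAD inhibitor genes Skil and Smad7 (0.60 and 0.55). Tgfb2 and Tgfbi fell by 0.35 and 0.35. Leaving out each library in turn gave 7 to 8 higher and 3 to 5 lower. Among 20 YAP and SRF contractile genes 5 rose (25%, against 6.28% of all tested genes). None fell (none at an unadjusted p under 0.05 in limma either). The actin-binding Tagln was at 0.52 and the angiomotin gene Amotl2 at 0.48. Leaving out each library in turn gave 3 to 4 higher genes, against 12 with the 6 libraries fitted alone.

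Matrix genes were changed in both directions. Lox, the enzyme that cross-links collagen and elastin, was at 1238, 1295 and 1318 FPKM in normal culture and at 1772, 1758 and 1750.2 in co-culture (0.46 ± 0.081, adjusted p = 0.000389). Thbs1, a matricellular glycoprotein, rose by 0.35 from a mean of 1269 FPKM. Of 18 tested collagens other than those of cartilage, 3 rose (16.7%, against 6.28% of all tested genes) and 7 fell (38.9%, against 9.2%). Col5a2 and Col8a1 rose by 0.27 and 0.33, Col14a1 and Col6a2 fell by 0.50 and 0.24, and Col1a1 was at 2458, 2537 and 2474 and 2401, 2388 and 2381 FPKM (adjusted p = 0.535). The proteoglycans Vcan, Lum and Dcn fell by 0.44, 0.44 and 0.47 and the fibulin gene Efemp1 by 0.55.

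Of the matrix-degrading enzymes 9 of 27 fell (33.3%, against 9.2% of all tested genes) and 4 rose (14.8%, against 6.28%). Leaving out each library in turn gave 4 to 6 lower and 3 higher. Mmp3, stromelysin 1, was at 211, 184 and 162 FPKM in normal culture and at 107, 104 and 112 in co-culture (-0.77 ± 0.15, adjusted p = 0.000943). Mmp13, the main collagenase of cartilage, was at 329, 301 and 301 and 234, 225 and 241 FPKM without overlap (-0.41 ± 0.14, adjusted p = 0.0495). The call was lost whichever of the 6 libraries was left out (adjusted p up to 0.158), while the difference stayed between -0.43 and -0.37. The aggrecanase gene Adamts5 was at 48.2, 51.7 and 52.1 and 58.9, 59.1 and 58.3 (0.21 ± 0.07, adjusted p = 0.0432), with the call again lost without any 1 library (adjusted p up to 0.169), and Adamts4 was at 9.30, 9.56 and 8.77 and 8.07, 8.59 and 8.13 FPKM (adjusted p = 0.0817). Mmp11 and the plasminogen activator gene Plau rose by 0.43 and 0.37, and Mmp19 fell by 0.40. Of the protease inhibitors, Timp2, Serpine2 and Serpina3n fell by 0.29, 0.44 and 0.53.

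Cartilage matrix genes did not move as a group (median 0.03). Of 22 tested, 5 were higher (22.7%, against 6.28% of all tested genes) and 5 lower (22.7%, against 9.2%). Leaving out each library in turn gave 3 to 4 higher and 5 lower. Col2a1, the main collagen of cartilage, was at 309, 289 and 309 FPKM in normal culture and at 404, 395 and 380.1 in co-culture (0.38 ± 0.051, adjusted p = 1.88e-05). Acan, the aggrecan core protein, was at 10.1, 9.42 and 10.1 and 13.9, 13.5 and 13.6 FPKM (0.43 ± 0.13, adjusted p = 0.0211), and leaving out 1 library lost the call in 5 of 6 cases, all but normal culture replicate 3 (adjusted p up to 0.0722). Neither gene's groups overlapped. Sox9, the transcription factor that drives both, was at 30.9, 29.3 and 30.7 and 26.6, 25.8 and 25.9 FPKM. All 3 co-culture libraries lay below normal culture (difference -0.21). With the spread estimated over all 24 libraries, Sox9 fell short of the threshold (adjusted p = 0.123). Otor, Matn4 and Epyc, minor cartilage matrix genes, fell by 0.92, 0.74 and 0.42. Mgp, an inhibitor of calcification, was at 593, 569 and 561 FPKM in normal culture and at 365, 371 and 357 in co-culture (-0.66 ± 0.091, adjusted p = 2.20e-05). The hypertrophy gene Col10a1 was at 1.70, 1.30 and 1.59 and 1.14, 1.09 and 1.35 FPKM (adjusted p = 0.365), and Prg4, which encodes the lubricant of the joint surface, at 32.8, 28.1 and 30.2 and 33.1, 32.0 and 31.1 (adjusted p = 0.328). The groups of both overlapped.

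Smaller lists gave a few further calls. Of 11 tested glucocorticoid response genes 6 rose (54.5%, against 6.28% of all tested genes) and 1 fell (9.09%, against 9.2%). Besides Dusp1 and Errfi1, the kinase gene Sgk1 rose by 0.64, the transcription factor gene Klf9 by 0.37 and Tsc22d3 (GILZ) by 0.22, and the member that fell, Hsd11b1, encodes the enzyme that regenerates active glucocorticoid (-0.75). The call of Tsc22d3 was lost without normal culture replicate 2 and without co-culture replicate 2 (adjusted p up to 0.107). The metallothionein genes Mt1 and Mt2 rose by 0.55 and 0.39, while the transferrin receptor gene Tfrc and the ferritin gene Fth1 fell by 0.37 and 0.40. The circadian repressor gene Bhlhe40, which hypoxia also induces, rose by 0.69. Cdkn2a, a cell cycle inhibitor locus, fell by 0.49 (adjusted p = 0.00126).

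Proliferation and translation genes were not called when all 24 libraries shared 1 estimate of the spread. None of the 28 tested DNA replication genes and none of the 28 mitosis genes passed, and at an unadjusted p under 0.05 in limma 5 and 1 of them were lower and 0 higher. None of 33 cytosolic ribosomal protein genes passed (1 higher and 0 lower at that unadjusted level). With the 6 libraries fitted alone, 11 replication and 9 mitosis genes were lower and 7 ribosomal protein genes higher. Of 28 tested genes of the unfolded protein and amino acid stress response 3 rose (10.7%, against 6.28% of all tested genes) and 2 fell (7.14%, against 9.2%). Among them were the chaperone gene Hspa5 at 0.18 and the stress factor gene Ddit3 at -0.48. Cholesterol and fatty acid synthesis gave 2 higher (6.25%) and 3 lower (9.38%) of 32, near the shares over all tested genes (6.28% and 9.2%).

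Markers of other cell types were examined for RNA from cells other than chondrocytes. In bulk RNA, fewer cells of a type and less RNA per cell cannot be told apart. The 16 dermal fibroblast markers summed to 5789 to 6019 FPKM in normal culture and to 5279.9 to 5309.95 in co-culture, without overlap. Of these 16, Dpp4 rose (0.31, adjusted p = 0.0148), which is 6.25% against 6.28% of all tested genes, and 6 fell (37.5%, against 9.2%). The call of Dpp4 was lost without normal culture replicate 1 and without co-culture replicates 1 and 2, each left out singly (adjusted p up to 0.120). The 6 were Dpt, a dermal matrix protein, with 13.3, 13.0 and 13.8 FPKM in normal culture and 6.10, 6.58 and 6.07 in co-culture, Clec3b with 4.89, 5.19 and 4.94 and 2.01, 1.81 and 2.21, Pi16 (-0.49), Dcn, Lum and Pdgfra (-0.35). The other 9 were not called. They were the abundant markers Col1a1, Col3a1 and Mfap5, and Cd34 (-0.19), Crabp1 (-0.18), Dlk1 (-0.075), En1 (-0.037), Tbx15 (-0.026) and Twist2 (-0.014). Col1a1 alone made up a large part of each sum. Since Dpt and Clec3b stand among the largest falls, the lower matrix, WNT and complement genes moved in the same direction as these markers, and the part of fibroblast-like cells in those results was not tested.

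The sums of the other marker lists differed less in FPKM. The 10 chondrocyte markers summed to 551 to 578 FPKM in normal culture and 624 to 649 in co-culture, without overlap and most of it Col2a1. Of the 9 tested, 3 rose (Col2a1, Acan and Col9a1), which is 33.3% against 6.28% of all tested genes. None fell, against 9.2% (1 at an unadjusted p under 0.05 in limma). The call of Col9a1 was lost in every case but normal culture replicate 1 (adjusted p up to 0.174). The 9 synovial and perichondrial fibroblast markers summed to 736 to 747 FPKM in normal culture and 778 to 805 in co-culture, again without overlap but in the direction opposite to the dermal markers. Of the 8 tested, 2 rose (25%, against 6.28% of all tested genes), Hbegf and the tendon factor gene Scx (0.48). None fell, against 9.2% (2 at an unadjusted p under 0.05 in limma). None of 12 tested macrophage and myeloid markers passed, and none did so at an unadjusted p under 0.05 in limma, with sums of 60.8 to 69.2 and 58.5 to 63.7 FPKM. Skeletal muscle markers summed to 250 to 283 and 221 to 256 FPKM, with none of 11 called (0 higher and 2 lower at an unadjusted p under 0.05). Adipocyte markers summed to 74.1 to 85.1 and 94.5 to 103 FPKM, without overlap and almost all of it Fabp4, and their part in the lipid gene results was not tested. Pericyte, osteoblast, melanocyte and Schwann cell, endothelial, keratinocyte and neutrophil markers summed to at most 32.8 FPKM in any library, and those of T, B and mast cells and of erythroid cells to at most 0.39. The melanocyte marker Dct was listed at 0 in all 6 libraries.

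The rises of the immediate early genes were compared with the same co-culture contrast 36 h later, at 72 h, in 6 other libraries. There 414 genes passed (3.4%), 210 higher (1.72%) and 204 lower (1.68%). Of the 765 genes higher at 36 h, 105 were also higher at 72 h (13.7% of the 36 h list and 50% of the 72 h list), and of the 1120 lower ones, 82 were lower (7.32% and 40.2%). The difference between the times was tested in the same fit and passed for 605 genes (4.97%), 269 more positive (2.21%) at 36 h and the rest more negative (2.76%). The number of more negative ones was 205 without normal culture replicate 1, 223 without co-culture replicate 2 and 215 without co-culture replicate 3. Immediate early genes were prominent among the former, with 15 of 25 members more positive at 36 h. Fos was at 25.5 ± 0.783 FPKM in normal culture and 25.9 ± 0.251 in co-culture at 72 h (SD, n = 3), and its difference between times was 1.75 ± 0.078 (adjusted p = 6.84e-13). The normal cultures of 72 h thus stood closer to the co-cultures of 36 h than to the normal cultures of 36 h. The same was seen for Egr1, at 163 ± 7.22 and 156 ± 6.21 FPKM, and Dusp1, at 56.6 ± 2.46 and 53.5 ± 1.61. Ptgs2 was at 50.0 ± 5.69 and 50.0 ± 3.46 FPKM (difference between times 2.16 ± 0.23, adjusted p = 1.90e-06). For Nr4a1 the co-culture difference at 72 h was negative (-0.28 ± 0.059, adjusted p = 0.00982).

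Hypoxia and glycolysis genes were still mostly higher in co-culture at the later time. At 72 h 23 of 34 rose and none fell (0 lower at an unadjusted p under 0.05 in limma), with a median of 0.36. Over all tested genes 1.72% rose and 1.68% fell at 72 h. For 5 of 34 the effect was more positive at 36 h and for 1 more negative, against 2.21% and 2.76% of all tested genes. Egln3 was at 3.27 ± 0.528 FPKM in normal culture and 8.09 ± 1.41 in co-culture at 72 h (difference 1.08 ± 0.10, adjusted p = 8.32e-07), on a much lower level than at 36 h, and the difference between the times was 0.62 ± 0.14 (adjusted p = 0.00822). Car9 differed by 1.01 at 72 h and 1.08 at 36 h (adjusted p of the change between times = 0.856). Among the lower genes, Sfrp2 differed by 0.054 at 72 h (difference between times -1.39 ± 0.13, adjusted p = 6.03e-07), Igf1 by 0.062 and Cxcl12 by 0.09. Il6 turned: it was higher in co-culture at 36 h and lower at 72 h (-0.45 ± 0.10, adjusted p = 0.0133).

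With IL-1β present at 36 h, again in 6 other libraries, co-culture changed 1285 genes (10.6%), 777 higher (6.38%) and 508 lower (4.17%). Of the 765 genes higher without IL-1β, 185 were higher with it (24.2% and 23.8% of the 2 lists), and of the 1120 lower ones 193 were lower (17.2% and 38%). The difference between the untreated and treated effect passed for 847 genes (6.96%), 271 more positive (2.23%) and 576 more negative (4.73%) without IL-1β. Of the 25 immediate early and ERK feedback genes, 14 rose and 3 fell under IL-1β, with a median of 0.43 in both settings. The difference between the settings passed for 12 of the 25, more positive without IL-1β for 7 and more negative for 5. Fos went from 6.61 ± 0.715 to 30.8 ± 1.49 FPKM under IL-1β (SD, n = 3), a difference of 2.06 ± 0.055, which was larger than without it by 0.29 (adjusted p = 0.0226). Egr1 likewise differed by 1.96. Dusp1 differed less under IL-1β, by 1.06 against 1.52 (adjusted p = 0.0113).

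The rises of Ptgs2, Nos2 and Lif were not repeated at that size under IL-1β. Ptgs2 was at 554 ± 53.1 FPKM in normal culture and 515 ± 19.7 in co-culture with IL-1β (adjusted p = 0.761), and the effects differed by 2.27 ± 0.23 (adjusted p = 3.59e-06). For Nos2, at 95.3 ± 6.61 and 76.2 ± 1.46 FPKM, the effects differed by 1.21 ± 0.16 (adjusted p = 7.69e-05). For Lif, at 88.1 ± 4.28 and 108 ± 2.80 FPKM, they differed by 1.38 ± 0.13 (adjusted p = 1.07e-06). Over all tested genes 6.38% rose and 4.17% fell with co-culture under IL-1β. The effect was more positive without IL-1β for 2.23% and more negative for 4.73%. These shares are the background for the list counts that follow. Hypoxia and glycolysis genes rose in 15 of 34 cases and fell in 1 under IL-1β, and the effect was more positive without it for 12. Cell cycle genes differed between the settings: under IL-1β 19 of 28 DNA replication and all 28 mitosis genes rose with co-culture, and the effect was more negative without IL-1β for 19 and 26 of them. Unfolded protein and amino acid stress genes rose in 16 of 28 cases under IL-1β and in 3 without it, and the difference itself passed for 12.

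**Figure D5:**
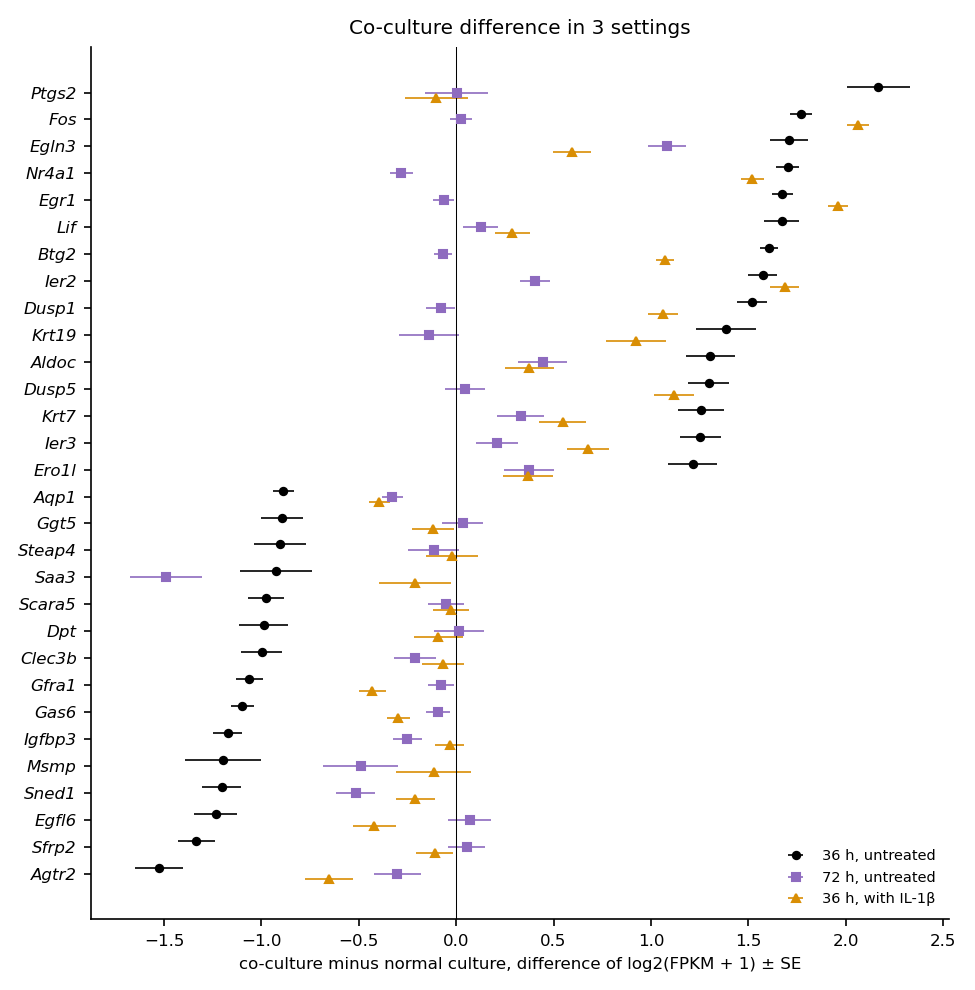
Co-culture minus normal culture (difference of log2(FPKM + 1), bars are the standard error of the fit, 3 libraries per group) for the 15 higher and 15 lower named genes with the largest differences at 36 h without IL-1β, beside the same contrast at 72 h without IL-1β and at 36 h with it. Fos, Egr1, Ier2 and Dusp1 lie far to the right at 36 h in both settings and near 0 or below 0.5 at 72 h, and Saa3 alone of the lower genes is further left at 72 h (-1.49).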

How the data were processed

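Poly(A) RNA of 24 libraries, 8 groups of 3, was measured by RNA-seq. The authors deposited FPKM per gene, on build GRCm38 per the submitters' processing notes; no aligner, counter or strand setting is stated in the sources used here, and overlapping genes cannot be told apart. FPKM is scaled to a constant total, so that a rise in abundant genes lowers the others, and the number of reads behind a value is unknown. Samples were grouped by their titles.

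Differences were fitted with limma 3.58.1 (R 4.3.3), with a trended prior, on log2(FPKM + 1) for the 12178 of 17094 genes with at least 1 FPKM in at least 3 libraries. The fit held 1 mean per group over all 24 libraries (16 residual degrees of freedom), and p-values were adjusted by Benjamini-Hochberg over all tested genes, with a threshold of 0.05. The pseudocount makes the fold changes of low genes too small. The change between times and between treatments was tested as an interaction in the same fit. The script was tested on simulated data. Figures were drawn with Python 3.11 and matplotlib 3.10.9.

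The comparison and the 34 pathway and 14 marker lists were chosen with earlier results of these data known. Named genes were 13 fixed cartilage and inflammation genes, the 15 higher and 15 lower called genes with the largest differences (groups not overlapping and the higher group averaging 5 FPKM or more), up to 5 called members of each list described with the largest differences, the 3 most expressed markers of each cell type and the 5 most expressed called genes. Further members of a list were named, after their values were seen, to complete a family or a count, and so was Hif1a. Some genes that the rule names are not reported here. Alternatives were another pseudocount, other filters, TPM and median-of-ratios scaling, the 6 libraries alone, a replicate block, weights per library and leaving out each of the 6 libraries. Among the 6 libraries of the comparison, those of the same number did not deviate together (correlations of -0.0107, -0.0266 and -0.00204), so the numbers were not used as pairs. Whether libraries of the same number deviated together in the other groups, which also enter the estimate of the spread, was not examined.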

Additional observations from a re-analysis of the deposited data

Results flagged for a closer look

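The co-culture effect without IL-1β differed between 36 h and 72 h for 605 genes by limma's test of the difference itself (Benjamini-Hochberg adjustment). The 13 fixed genes and the 5 higher and 5 lower genes with the largest differences were looked up. The effect at 36 h was more positive by 2.16 on the log2(FPKM + 1) scale for Ptgs2, 1.98 for Nr4a1, 1.75 for Fos, 1.74 for Egr1, 1.02 for Nos2, 0.95 for Il6, 0.70 for Prg4, 0.62 for Egln3 and 0.36 for Col2a1. The difference was -1.39 for Sfrp2, -1.30 for Egfl6, -1.22 for Agtr2 and -0.69 for Sned1. Prg4 was not called at 36 h, so its difference between times rests on the 72 h libraries as well.

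The effect at 36 h differed between untreated and IL-1β-treated cells for 847 genes by the same kind of test. It was more positive without IL-1β by 2.27 for Ptgs2, 1.21 for Nos2, 1.11 for Egln3, 0.60 for Il6 and 0.48 for Prg4. The difference was -1.22 for Sfrp2, -1.08 for Msmp, -0.995 for Sned1, -0.87 for Agtr2, -0.81 for Egfl6, -0.29 for Fos and -0.29 for Egr1, the last 2 being genes that rose in both settings. Groups of 3 libraries are too small for a test of single outlying libraries.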

How the results depend on the processing

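The counts of 765 higher and 1120 lower genes stayed within 1.5-fold with a pseudocount of 0.1 (752 and 1036), no filter on low values (783 and 1191), a filter at 5 FPKM (642 and 876), TPM (630 and 1127) and median-of-ratios scaling (889 and 786), and no scaling moved the median of all genes by more than 0.1. Fitted alone, the 6 libraries gave 1205 and 1890, and weights per library gave 1392 and 2275. Those weights also gave 973 more positive and 1377 more negative differences between the times, and 757 and 1482 between the treatments. Leaving out each of the 6 libraries gave 549 to 616 higher genes, 697 to 806 lower genes and 205 to 229 with a more negative effect at 36 h than at 72 h. The cause was not tested. A replicate block, which the 6 libraries of the comparison do not support as a pairing, gave 852 and 1288 over all libraries and 1064 and 1623 over the 6. Of 157 named genes past the threshold, 142 passed in the same direction under every alternative that tested them, 15 lost their call under at least 1 and none reversed. A fit with 1 library fewer has a larger standard error, so a call near the threshold can be lost with little change in the difference. Over the alternatives Mmp13 lay between -0.43 and -0.37 (limma adjusted p 9.21e-05 to 0.158). Acan lay between 0.40 and 0.47 (3.18e-05 to 0.106) and Adamts5 between 0.18 and 0.24 (0.000584 to 0.169). Hif1a and Spry4, which were not called and had a negative value in the analysis reported, differed by 0.0224 and 0.00918 after median-of-ratios scaling. When each of the 6 libraries was left out, Hif1a lay between -0.0334 and 0.0164 and Spry4 between -0.0308 and 0.0404. Across all alternatives 28 to 31 hypoxia and glycolysis genes and 15 to 20 immediate early genes were higher. The number of reads is unknown, so counting error could not be separated from the spread between libraries.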
